A study of Mus musculus with 2 samples.

Results

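The data described here are the H3K4me1 regions of mouse pre-B cells at 3 genes of the Kruppel-like factor family, Klf13, Klf2 and Klf3. H3K4me1 is histone H3 carrying a single methyl group on lysine 4, a mark found at enhancers and beside active promoters. The members were all regions of the deposited list that overlap a fixed window of mouse build mm9 for each gene: chr7:70950000-71250000 for Klf13, chr8:74780000-74900000 for Klf2 and chr5:65100000-65320000 for Klf3. These windows held 23, 12 and 17 regions, 52 of the 48130 regions in the list. The windows were chosen by the regions of this same list, so their region numbers, lengths and coverage are given as a description, with no test.

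The study has 2 samples: 1 H3K4me1 library and 1 input library made without antibody, both from bone marrow pre-B cells. Both came from RAG1-/- mice on the B6 (C57BL/6) background that carry a rearranged IgM transgene, written RAG-/-µ+ in the labels, of both sexes and 6 to 14 weeks old. Such mice cannot rearrange their antigen receptor genes, and the transgene supplies the heavy chain that pre-B cells need, so the cells are a model of this stage and not pre-B cells that rearranged their own genes. There is no replicate and no second cell type, and how many mice were pooled for either library is not stated. The H3K4me1 library held 50945360 tags, and the list gives a position for each region but no tag count. A marked length is therefore known for each region and a signal is not. The cell type could not be checked against marker expression, which a region list does not hold.

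Kruppel-like factors are transcription factors that bind CACCC and related GC-rich sequences through zinc fingers at their C-terminal end. KLF2 maintains quiescence and directs the trafficking of lymphocytes, and takes part in the placement of mature B cell subsets. KLF3 is mainly a repressor that recruits the corepressor CtBP, and is also known from erythroid cells and B cells. KLF13, known as an activator of the chemokine gene Ccl5 in T cells, also acts in lymphocyte survival. H3K4me1 often forms broad stretches over clusters of enhancers, and at active promoters it tends to lie on either side of the start site.

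The promoters of the 3 genes are shown because each window was named for 1 of these genes and H3K4me1 flanks active promoters. Each sequence is the 250 bases before the start of transcription from RefSeq on build GRCm38.p6, read 5′ to 3′ along the gene. These positions belong to GRCm38.p6 and cannot be set beside the mm9 positions of the regions, so which region lies at each promoter was not analysed here. The Klf13 promoter is at chr7:63938916-63939165 on the minus strand, the Klf2 promoter at chr8:72318812-72319061 on the plus strand and the Klf3 promoter at chr5:64803271-64803520 on the plus strand. Capitals mark CCAAT on either strand for Klf13, the MEF2 site for Klf2 and CACCC on either strand for Klf3.
Klf13: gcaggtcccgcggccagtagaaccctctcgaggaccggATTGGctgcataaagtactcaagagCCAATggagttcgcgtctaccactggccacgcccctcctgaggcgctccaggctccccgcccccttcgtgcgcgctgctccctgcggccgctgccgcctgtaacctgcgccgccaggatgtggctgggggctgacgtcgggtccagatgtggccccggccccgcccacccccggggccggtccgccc
Klf2: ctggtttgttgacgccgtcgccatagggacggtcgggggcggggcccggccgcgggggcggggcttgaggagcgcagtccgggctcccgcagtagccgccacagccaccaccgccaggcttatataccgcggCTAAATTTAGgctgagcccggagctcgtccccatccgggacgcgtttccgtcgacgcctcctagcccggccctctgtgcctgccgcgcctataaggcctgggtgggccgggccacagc
Klf3: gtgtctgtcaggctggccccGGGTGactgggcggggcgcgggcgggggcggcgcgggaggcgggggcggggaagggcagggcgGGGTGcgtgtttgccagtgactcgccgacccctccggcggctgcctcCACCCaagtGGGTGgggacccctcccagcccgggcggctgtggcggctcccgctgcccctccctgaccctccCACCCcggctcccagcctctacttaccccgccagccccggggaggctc

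The 3 promoters shared a high content of G and C but held different motifs. The G and C content was 71.6% for Klf13, 71.2% for Klf2 and 78.4% for Klf3, beside a median of 52.4% over 32841 promoters of the same table. The ratio of observed to expected CpG dinucleotides was 0.76, 0.92 and 0.60, beside a median of 0.37. This ratio was lower in 78.0%, 89.3% and 66.0% of promoters, so that of Klf3 was less unusual. Klf3 held 5 matches to CACCC, the motif bound by the family itself, and 0.667% of all promoters held as many. It also held 6 matches to the GC box GGGCGG, as many as 0.883% of promoters did. These shares were not adjusted for G and C content, which was lower than that of Klf3 in 98.1% of promoters. Of 10 other Klf genes in the table, 7 held at least 1 CACCC and 7 at least 1 GC box. Klf13 and Klf2 held 1 CACCC each, beside 52% of all promoters with at least 1, and 3 and 2 GC boxes. At least 1 GC box was found in 32.7% of promoters, at least 2 in 16.7% and at least 3 in 8.47%. Klf2 alone of the 3 held a match to the MEF2 site, at bases -118 to -109 counted back from the start. MEF2 factors bind there to switch on Klf2 in endothelium, as background knowledge. That match occurred in 167 promoters (0.509%) and in none of the 10 other Klf genes in the table. Klf13 held 2 CCAAT boxes, the motif of NF-Y, from -212 to -208 on the opposite strand and from -187 to -183 on the gene's strand, beside 33.9% of promoters with at least 1 and 10.1% with at least 2.

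The E-box CANNTG was matched once in Klf13 and once in Klf3 and not in Klf2, beside 66.2% of promoters. In Klf3 this E-box shares bases with the CACCC on either side of it, at -120 and -111. A CACCC also shares bases with a GC box in Klf13 (at -22 and -27) and in Klf3 (at -167 and -172). The forkhead motif GTAAACA, the ETS motif GGAAGT, the STAT motif TTCNNNGAA and TATAAA were matched in none of the 3 windows of 250 bases. They were found in 3.17%, 19.7%, 7.02% and 12.4% of all promoters. All motifs were searched on both strands, and a match describes letters, not binding.

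H3K4me1 covered the 3 windows to very different degrees. Regions covered 81.9 kb of the 120 kb Klf2 window (68.3%), 127.2 kb of the 300 kb Klf13 window (42.4%) and 39.7 kb of the 220 kb Klf3 window (18.1%). The number of regions per 100 kb differed much less, at 10.0 for Klf2, 7.67 for Klf13 and 7.73 for Klf3. Klf13 and Klf3 thus held regions at nearly the same density, while the covered share differed 2.34-fold. No region crossed a window edge. The covered share depends on where the edges are: in the central part of each window, leaving out 25% of its length at either end, it was 61.3% for Klf2, 67.9% for Klf13 and 30.0% for Klf3. By that measure Klf13 was above Klf2. Widening each window by 25% on either side gave 49.9%, 30.4% and 16.4%.

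**Figure D1:**
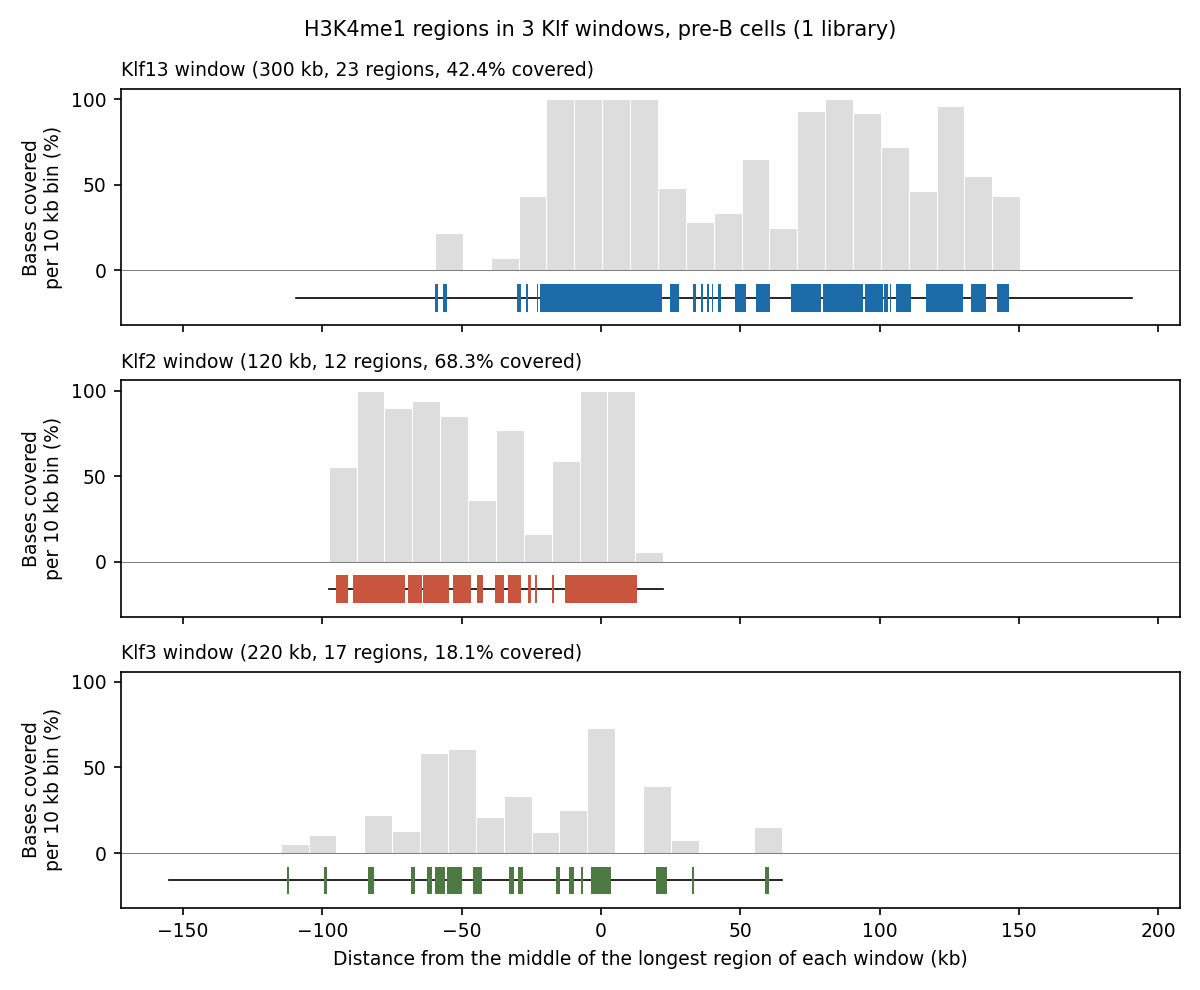
Position of every H3K4me1 region in the Klf13, Klf2 and Klf3 windows, in kb from the middle of the longest region of each window. Coloured blocks are regions, the black line is the extent of the window, and grey bars give the percent of bases covered in each 10 kb bin. The Klf13 window has 2 heavily covered blocks with lower coverage between them, the Klf2 window is covered in each of its 12 bins, and the Klf3 window has scattered regions with no fully covered bin.

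Windows as heavily covered as those of Klf2 and Klf13 were rare in this library, and windows like that of Klf3 were more common. Each chromosome was cut into windows of the same length as the Klf window, from its first to its last region, and windows touching the Klf window itself were left out. Of 21342 windows of 120 kb, 5 (0.0234%) had at least the covered bases of the Klf2 window. Of 8529 windows of 300 kb, 8 (0.0938%) had at least those of the Klf13 window, and of 11634 windows of 220 kb, 699 (6.01%) had at least those of the Klf3 window. The most covered windows reached 83.1%, 52.6% and 56.8% at these lengths. On their own chromosomes, 0 of 1064 windows exceeded Klf2, 0 of 494 exceeded Klf13 and 48 of 676 exceeded Klf3. By number of regions the 3 windows were closer together: 97.33%, 96.25% and 95.41% of equal windows held fewer regions than Klf2, Klf13 and Klf3. More regions were held by 375 of 21342, 259 of 8529 and 433 of 11634 windows. Only 49%, 62.2% and 57.7% of the windows of 120, 300 and 220 kb held any region, and unmappable sequence in the empty ones was not analysed here. Since the Klf windows were placed with the regions known, these ranks describe the choice and give it no support.

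**Figure D2:**
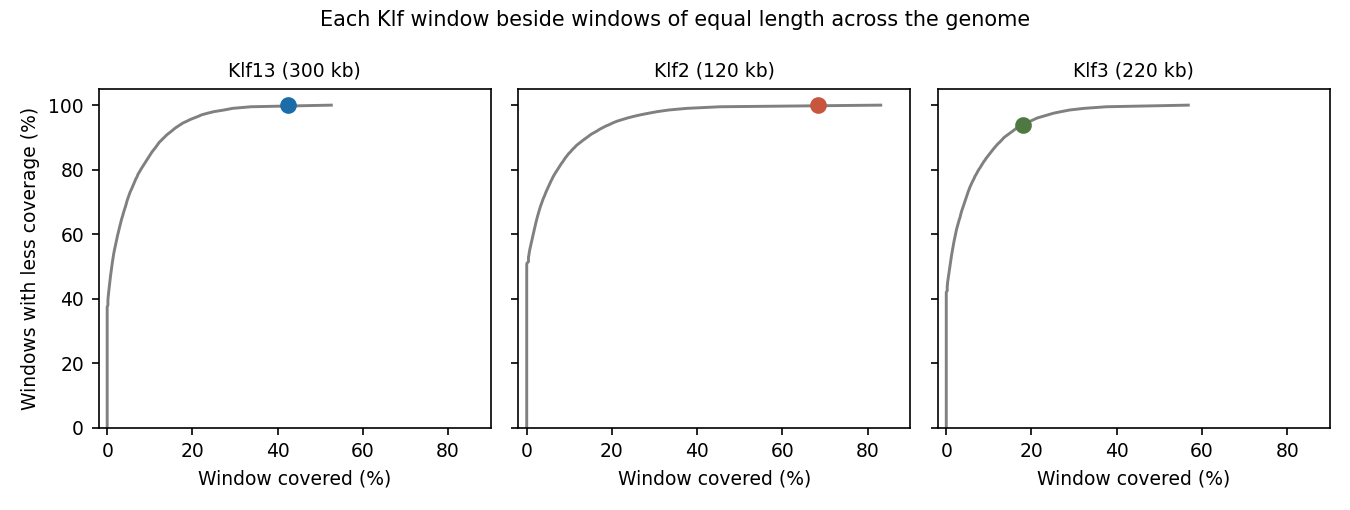
Share of genomic windows with less coverage (vertical axis, percent) against the percent of a window covered by H3K4me1 regions (horizontal axis), for windows of 300, 120 and 220 kb. The coloured points are the Klf13, Klf2 and Klf3 windows, with 99.91%, 99.98% and 93.99% of equal windows less covered; the grey line rises vertically at 0 up to the share of empty windows.

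The Klf2 window was the most compactly marked. Its 12 regions ran from 74782722 to 74890567 of chromosome 8, with no gap over 5.6 kb, and left margins of 2.7 kb before the first region and 9.4 kb after the last. Joined over gaps of up to 12500 bases they formed 1 domain of 107.8 kb, of which 75.9% was covered. The domain did not reach beyond the window, since its first and last regions were 14.05 and 33.77 kb from their outer neighbours. These neighbours were a region of 5.77 kb ending 11.3 kb before the window edge and one of 2.17 kb starting 24.3 kb after the other edge. Joining over up to 25 kb drew in regions before the window and gave a domain of 32 regions over 386.3 kb, of which 12 regions lie in the window.

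Within the Klf2 window the mark lay in a left and a right block. The longest region, of 25.7 kb (chr8:74864873-74890567), formed the right block alone, and 44 regions of the list were longer. The second, of 18.8 kb (chr8:74788673-74807452), had 165 longer regions in the list. It stood in the left block of 6 regions from 74782722 to 74835467, where 86.6% of 52.7 kb was covered and no gap exceeded 2.5 kb. That block also held regions of 9.2 kb (chr8:74813911-74823096) and 6.5 kb (chr8:74824556-74831032). A region of 4.9 kb (chr8:74808446-74813308) lay between the longer ones, with gaps of 993 and 602 bases on its sides. Between the blocks, regions of 3389 bases (chr8:74839557-74842945) and 4759 bases (chr8:74844301-74849059) stood as a pair on either side of a gap of 1355 bases. They were followed by 3 short regions of 1127, 501 and 765 bases, and by the widest gap of the window, of 5555 bases, between the last 2 of these. Which gene these positions belong to on mm9 was not analysed here. On GRCm38.p6 the protein-coding genes next to Klf2 are Ap1m1, an adaptor subunit of clathrin-coated vesicles, and Eps15l1, which takes part in endocytosis, so the marks in the window need not all belong to Klf2.

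The Klf13 window held the longest region of the 3 windows. A single region of 44.0 kb (chr7:71037565-71081579) made up 34.6% of its covered bases, and 6 regions of the list were longer. A second block lay to its right, where 6 regions from 71127653 to 71170994 covered 90.2% of 43.3 kb. It included regions of 11.0 kb (chr7:71127653-71138670), 14.2 kb (chr7:71139346-71153501), 6.3 kb (chr7:71154291-71160617) and 5.7 kb (chr7:71165269-71170994). The first 5 regions of this block were separated by gaps of only 675, 789, 585 and 713 bases, so that this stretch was nearly continuous. Beyond it lay regions of 13.2 kb (chr7:71176360-71189581) and 5.5 kb (chr7:71192332-71197865), and the last region of the window, of 4365 bases, ended at 71205959.

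Between its blocks the Klf13 window held marks of another size. After a region of 3245 bases, 5 regions from 71092664 to 71102554 had lengths of 944, 501, 885, 501 and 991 bases and covered 38.6% of 9.9 kb. Regions of 4125 and 4883 bases then led to the right block. On the left, 5 regions before the 44.0 kb region were all short, at 773, 1422, 1515, 638 and 501 bases. The widest gap of the window, 24.9 kb, lay among them. The first region began at 71000151, which left 50.2 kb of the window without a called region on the left, and 44.0 kb had none on the right. The nearest regions outside were one of 1.18 kb that ended 46.0 kb before the window and one of 1.42 kb that began 4.4 kb after it. Of 30 bins of 10 kb, 10 were empty and 5 were fully covered. On GRCm38.p6 the protein-coding genes next to Klf13 are Otud7a, a deubiquitinase gene, and E030018B13Rik, and their place among these regions was not analysed here.

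The Klf3 window was marked by scattered regions of moderate length. Its longest region, of 7.3 kb (chr5:65251278-65258610), made up 18.5% of the covered bases, and 2080 regions of the list were longer. The next, of 5.5 kb (chr5:65199623-65205156), closed a tight group with a region of 1882 bases (chr5:65192514-65194395) and one of 3575 bases (chr5:65195236-65198810). The gaps within this group were 840 and 812 bases, and 86.9% of its 12.6 kb was covered. The remaining regions among the longest 5 had 3925 bases (chr5:65274619-65278543) and 2999 bases (chr5:65209106-65212104). No bin of 10 kb was fully covered, 3 of 22 were covered to 50% or more, and 8 were empty.

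Joined over gaps of up to 12500 bases, the Klf3 regions formed 6 domains, beside 2 in the Klf13 window and 1 in the Klf2 window. The main one ran from 65186870 to 65258610 with 11 regions, covering 41.4% of 71.7 kb, and contained both regions over 5000 bases. The first 3 regions of the window, of 501, 1079 and 2204 bases, each stood alone, as did the last, of 1548 bases. The widest gap, 25.2 kb, lay before that last region. The first region began at 65142404, after 42.4 kb without a called region, and 4.8 kb remained after the last. Outside the window the nearest regions, of 3.52 and 2.36 kb, lay 29.2 kb before it and 28.2 kb after it. On GRCm38.p6 the protein-coding genes that follow Klf3 are Tlr1 and Tlr6, which encode receptors for bacterial lipopeptides, and the predicted gene Gm38457 precedes it. The place of these genes among the regions was not analysed here, so the marks in the window need not all belong to Klf3.

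Long regions held most of the covered bases in the Klf13 and Klf2 windows, and the smaller part in the Klf3 window. Regions of at least 10000 bases numbered 4 of 23 in the Klf13 window (17.4%, Wilson 95% interval 6.98 to 37.1%) and 2 of 12 in the Klf2 window (16.7%, 4.70 to 44.8%), beside 2.15% of the whole list. The Klf3 window had 0 of 17 (Wilson upper bound 18.4%); as 3 counts of 17, the limit that a count of 0 allows is a share of up to 17.6%. Regions of at least 5000 bases numbered 7, 4 and 2 in the Klf13, Klf2 and Klf3 windows, or 30.4%, 33.3% and 11.8%, beside 8.92% of the list. They held 78.6%, 73.4% and 32.4% of the covered bases of their windows, beside 34.0% over the whole list. With 12 to 23 regions a window, the Wilson intervals are wide and overlap one another, and they cover counting error only. They treat neighbouring regions as independent draws, and the windows were chosen by these same regions. An interval that leaves out the share of the whole list is therefore no test against that share.

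The median length did not follow the coverage, since it was nearly the same in the Klf13 and Klf3 windows. It was 4490 bases in the Klf2 window (25th and 75th percentiles 1888 and 7154), 1515 in the Klf13 window (829 and 5630) and 1570 in the Klf3 window (1296 and 2999), beside 1497 over the whole list (813 and 2694). The typical Klf13 region was thus about as long as the list's, and the window held its covered bases in a few very long ones. In it 3 regions, those of 13.2 kb or more, held at least 50% of the covered bases, as did 2 in the Klf2 window and 4 in the Klf3 window. At the other end, 9 of 23 Klf13 regions, 2 of 12 Klf2 regions and 3 of 17 Klf3 regions were under 1000 bases. In the whole list 32.18% of regions had 991 bases or fewer. The shortest length the caller gave, 501 bases, was found in 4 Klf13, 1 Klf2 and 1 Klf3 regions. These were 17.4%, 8.33% and 5.88% of the regions of their windows, beside 14.3% of the list.

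**Figure D3:**
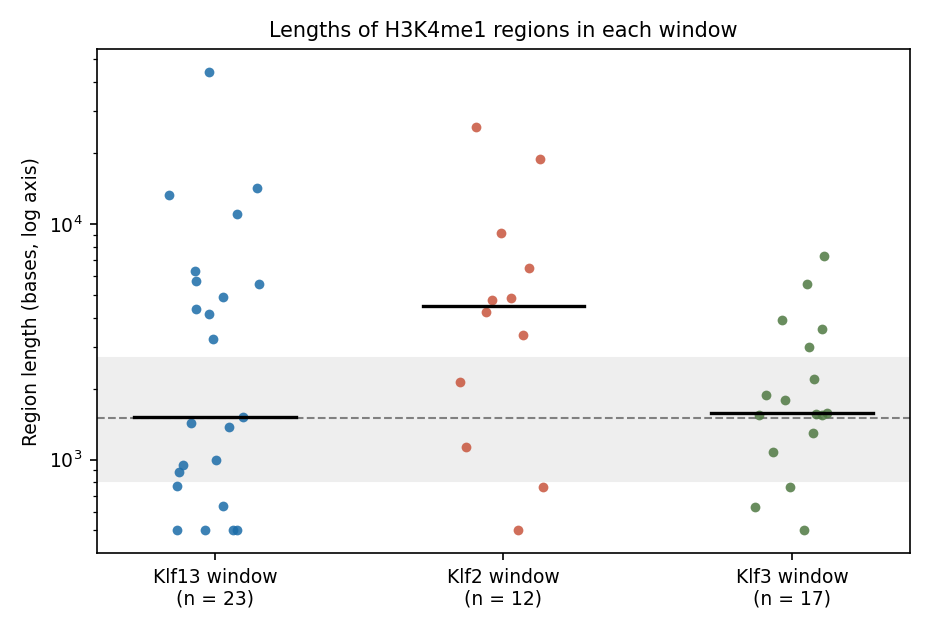
Length in bases (log axis) of each H3K4me1 region in the Klf13, Klf2 and Klf3 windows. Each point is a region, black bars are window medians (1515, 4490 and 1570 bases), the dashed line is the median of the whole list (1497 bases) and the grey band its 25th to 75th percentiles; the Klf13 points spread from 501 to 44015 bases.

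Regions of the Klf2 and Klf13 windows stood close to their neighbours, and those of Klf3 farther apart. The median gap between neighbours inside a window was 1.73 kb for Klf2, 2.00 kb for Klf13 and 6.76 kb for Klf3. Over the whole list it was 8.87 kb. Gaps leading out of a window were not counted. They were 14.05 and 33.77 kb for Klf2, 96.2 and 48.46 kb for Klf13, and 71.63 and 33.03 kb for Klf3. All exceed 8.87 kb, and the list has no such cut, so the window values lean towards short gaps. The Klf3 median is therefore not shown to be below that of the list. Gaps of up to 2.5 kb were 7 of 11 for Klf2 (63.6%, Wilson 95% interval 35.4 to 84.8%), 12 of 22 for Klf13 (54.5%, 34.7 to 73.1%) and 3 of 16 for Klf3 (18.8%, 6.59 to 43.0%), beside 26% of all gaps. Gaps of up to 12500 bases were 11 of 11, 21 of 22 and 11 of 16 inside the windows, beside 57.7% of all gaps. The gaps leading out of each window, all longer than 12500 bases, are not in these counts. The Wilson intervals for gaps likewise treat neighbouring gaps of a chosen window as independent, and are no test against the list. Gaps under 1000 bases numbered 2 of 11 in the Klf2 window, 6 of 22 in the Klf13 window and 2 of 16 in the Klf3 window. Their share over all gaps was not computed, so these counts are not set against the list. The smallest were 602, 533 and 812 bases, beside a smallest gap of 499 bases in the whole list. The caller's peak size of 500 bases and minimum distance of 1000 between peaks limit how small a gap can be.

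**Figure D4:**
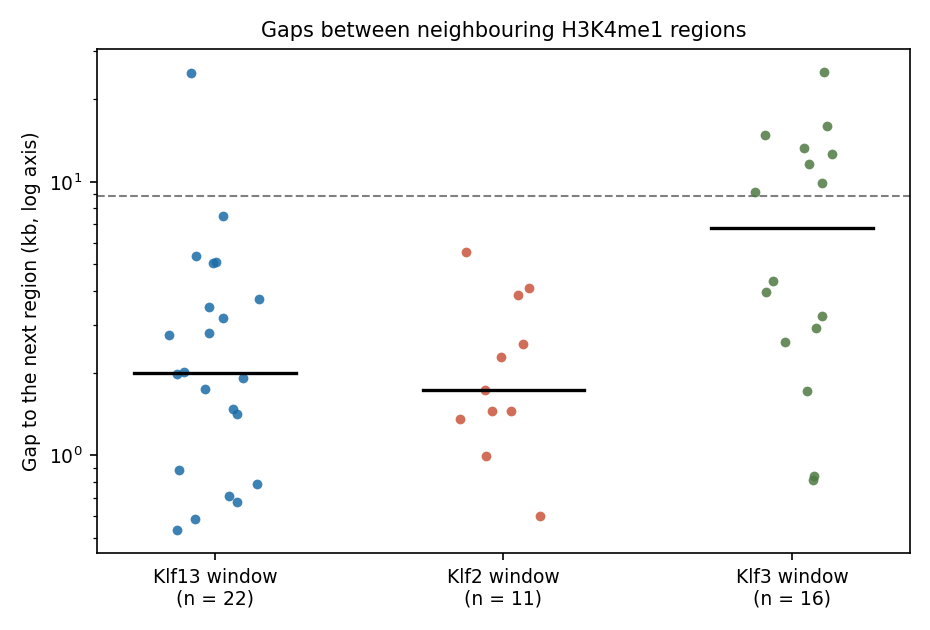
Gap in kb (log axis) between neighbouring H3K4me1 regions within the Klf13, Klf2 and Klf3 windows. Each point is a gap, black bars are window medians (2.00, 1.73 and 6.76 kb) and the dashed line is the median of the whole list (8.87 kb). All 11 Klf2 gaps inside the window lie below that line. Gaps leading out of a window, all above the line, are not drawn.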

How the data were processed

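The H3K4me1 and input libraries were each made from 1 to 10 ng of DNA with 18 PCR cycles and sequenced as single reads of 100 bases, per the labels' protocols. Bowtie 0.12.9, HOMER 4.7 and build mm9 were used, per the submitters' processing notes. Regions were called in HOMER's histone style against input, per the file headers: peaks of 500 bases with at least 26 tags and 4 times the input, stitched into regions of variable length. A weaker or thinly sequenced stretch can thus split a region. The deposited score is 1 for every region and was not used. Starts are printed counting from 1.

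The members and lists were chosen with earlier results of these data known. A region belonged to a window if at least 1 base overlapped. Coverage, gaps, stitched domains and equal windows were computed with numpy 2.4.6, scipy 1.17.1 and pandas 2.3.3 under Python 3.11.15, and the functions were tested on simulated data. Chromosome Y was left out of equal windows. With 1 library a group no p-value is given. Alternatives changed the length minimum, window edges, stitching gap and tiling. Named in each window were the longest 5 regions, every region of at least 5000 bases, the widest gap and the first and last region; shorter regions and gaps named beside these were chosen after their values were seen. A planned comparison of KLF proteins was not run, and other Klf genes were not located on mm9.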

Additional observations from a re-analysis of the deposited data

How the results depend on the processing

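The share of windows less covered than the Klf13 window was 99.91%, and it was 96.25% by number of regions. For Klf2 these values were 99.98% and 97.33%, with 99.99% when the tiling began midway through the first window. For Klf3 they were 93.99% and 95.41%, with 89.59% among windows that hold a region. Coverage moved with the window edges: for Klf13 from 42.4% to 67.9% in the central part and 30.4% in the widened window, for Klf2 from 68.3% to 49.9% when widened, and for Klf3 from 18.1% to 30% in the central part. Regions of at least 1000 bases numbered 14 of the 23 at Klf13. Domain numbers follow the stitching gap by construction. Klf13 had 2 domains at 12500 bases, 1 at 25 kb, 6 at 5 kb and 11 at 2.5 kb. Klf2 had 1, with 2 at 5 kb and 5 at 2.5 kb, and Klf3 had 6, with 2 at 25 kb and 14 at 2.5 kb. Counting whole regions at the edges could not change coverage, since no region crossed one. No paired analysis was possible because each group has 1 sample. With a score of 1 for every region, a region close to the calling threshold cannot be told from a strong one, and what depth limits here was not tested.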

Other observations

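The deposited list is not in genome order, and the header does not state what it is sorted by. Its order followed region length closely, with a Spearman rank correlation of 0.973 over 48130 regions of 1 library. Departures from it, looked at after the values were seen, differed among the Klf regions. The 44.0 kb Klf13 region was in row 20 although 6 regions are longer. The 25.7 kb Klf2 region was in row 23 although 44 are longer. In the Klf13 window the 3245-base region that follows the 44.0 kb one stood in row 3582, although 8940 regions are longer, and the 14.2 kb region in row 160, although 395 are longer. In the Klf2 window the 9.2 kb region stood later than its length, in row 2246 with 1268 longer regions. The 3389-base region of the Klf2 pair stood earlier, in row 5066 with 8344 longer regions. In the Klf3 window 12 of 17 regions were listed before their rank by length, as were 14 of 23 in the Klf13 window and 9 of 12 in the Klf2 window, beside 23653 of 48130 in the whole list.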
